A study of Mus musculus with 8 samples.

Results

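Simple keratins and genes of the ovarian surface epithelium were followed through granulosa cells of the newborn mouse ovary. The members were 10 genes taken by symbol, the keratin genes Krt7, Krt8, Krt18 and Krt19, the surface epithelium and mesothelium genes Upk3b, Upk1b, Lgals7, Msln and Aldh3b2, and the vimentin gene Vim. Of these 10, 9 were among the 11783 genes of the deposited expression table, and Aldh3b2 was not in it. All 9 were measured above 0 in all 8 libraries. Each library was made from granulosa cells, the supporting cells that surround the oocyte. Ovaries of C57BL/6 mice were dissociated on postnatal day 1 for 4 libraries (PND1) and on postnatal day 4 for the other 4 (PND4). Strain and cell type are the same at both ages, and the labels name no genotype, treatment or purification marker. The series is framed around the activation of the first primordial follicles. The labels do not say whether libraries of the same age stem from different animals, so p-values here cover only the spread between libraries, which may be technical.

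Keratins are intermediate filament proteins of epithelial cells, and a filament is built from pairs of a type I and a type II keratin. KRT18 and KRT19 are type I, KRT7 and KRT8 are type II, and KRT8 with KRT18 is the usual pair of simple, single-layered epithelia. The ovarian surface epithelium is a mesothelium-like layer that carries keratins, mesothelin and uroplakins, and in rodents it gives rise to part of the pregranulosa cells, in which keratins have also been described. Vimentin is the intermediate filament protein typical of mesenchymal cells and is also found in granulosa cells.

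The members lie on several chromosomes of GRCm38 (GENCODE M21). Krt7 lies at chr15:101411043-101430313 on the plus strand, Krt8 at chr15:101996698-102004482 on the minus strand and Krt18 at chr15:102028180-102032027 on the plus strand. The 5′ ends of Krt8 and Krt18 are 23.7 kb apart and point away from each other, with 1 annotated gene between them (Gm36026). Krt19 lies at chr11:100140810-100148665 (minus), Upk3b at chr5:136038496-136046487 (plus), Upk1b at chr16:38773184-38800328 (minus), Lgals7 at chr7:28863853-28866284 (plus), Msln at chr17:25748613-25754378 (minus) and Vim at chr2:13573927-13582826 (plus). Krt7 overlaps the antisense gene Gm671, Lgals7 the antisense gene Gm10648, and Krt8 the noncoding gene Gm36026 on the opposite strand. The sources used here do not say if reads were counted by strand, and reads of these overlapping genes cannot be told apart.

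RefSeq promoters (GRCm38.p6) were found for 6 of the 9 members. The stretch from 40 to 11 bases before the RefSeq start, where a TATA box usually sits, is printed for each of these 6. RefSeq starts differ from the ends of the GENCODE spans above. The stretches of Krt7, Krt8, Lgals7 and Vim lie inside the GENCODE span of the gene, and that of Krt18 lies partly inside. Only the stretch of Upk3b lies wholly before its span. Which start the cells used was not tested. Letters in capitals belong to a match of a searched motif, and the strand is that of the gene.
Krt7 (chr15:101412363-101412392, plus): TGtgtgcgctcagcctCCGCCCcgcatgga
Krt8 (chr15:102004353-102004382, minus): agaggcccttttccctcccctggggctggc
Krt18 (chr15:102028176-102028205, plus): ccctacctcctcccgcggcgatataacaac
Upk3b (chr5:136038456-136038485, plus): ctgggcccagatagaggaggggagtctccc
Lgals7 (chr7:28864346-28864375, plus): tttgccttagggcaggggtctgtgccagct
Vim (chr2:13574271-13574300, plus): aacagtgtTATAAAagcagcgcccttggcg
Of these 6 stretches, the one of Vim holds the TATA box letters TATAAA. The stretch of Krt7 holds the GC box CCGCCC and, in its first letters, the end of a CACCTG. Motifs were searched on both strands over 300 bases, from 250 before to 50 after the start, beside the same search in 32851 promoters. TATAAA was found in the promoters of Vim and of Krt8, where it spans the RefSeq start, and in 13.6% of all promoters. GGGCGG was found in those of Krt7 and Lgals7 (35.7% of all promoters), CCAAT in that of Vim (37.4%), and the ETS core GGAAGT in those of Krt7, Krt8, Upk3b and Vim (23.8%). CAGGTG, an E-box bound by SNAI repressors, was found in the promoters of Krt7, Krt8 and Krt18 and in 20.2% of all promoters. The AP-1 letters TGACTCA or TGAGTCA (5.2% of promoters) and the GRHL letters AACCGGTT (0.146%) were in none of the 6. A match of letters is a description of the sequence, and no binding was measured.

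Expression was given as FPKM, reads scaled by transcript length and by sequencing depth, so levels of different genes can be set side by side. Totals over the listed genes ran from 443333 to 505035 FPKM per library, and the read depth behind them is unknown. Between 222 and 1234 of the listed genes were at 0 in a library, with the most in PND1 replicate 1 and PND4 replicate 1. The labelled cell type was checked with 11 granulosa markers, of which 10 were listed, 1 of them at 0 in some library. Their summed levels were 155 to 234 FPKM at PND1 and 190.4 to 222 FPKM at PND4. The sum of these markers was highest in PND1 replicate 2 and lowest in PND1 replicate 3. Among them were Foxl2, at 10.5 to 19.3 FPKM at PND1 and 13.3 to 26.2 FPKM at PND4, and Kitl, at 62.8 to 90.8 and 63.4 to 71.8 FPKM. The genes that mark the ovarian surface were thus measured beside granulosa markers in the same libraries. In such bulk samples, fewer cells of a type and less RNA per cell cannot be told apart.

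Vim and the keratin pair Krt18 and Krt8 were among the most abundant transcripts in these libraries, and the uroplakin, mesothelin, galectin-7 and Krt7 transcripts were far lower. Over 8 libraries the mean level was 648 ± 121 FPKM for Vim (SD), 493 ± 72.1 for Krt18, 373 ± 68.9 for Krt8 and 123 ± 49.8 for Krt19. By mean level these genes ranked 60, 79, 108 and 405 among the 11783 listed. The uroplakin genes Upk1b and Upk3b had means of 41.7 ± 17.1 and 38.4 ± 11.9 FPKM, Msln 36.4 ± 10.99, Krt7 31.0 ± 12.9 and Lgals7 25.5 ± 11.4 FPKM. The order from Krt18 down to Upk1b held in each library, with Krt18 above Krt8, Krt8 above Krt19 and Krt19 above Upk1b in 8 of 8. The neighbours at either end of the order did not separate as cleanly. Vim was above Krt18 in 6 of 8 libraries. Upk1b was above Upk3b in 4, Upk3b above Msln in 6, Msln above Krt7 in 6 and Krt7 above Lgals7 in 5 of 8 libraries, so the order of these 5 genes was not separated by their spread.

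**Figure D1:**
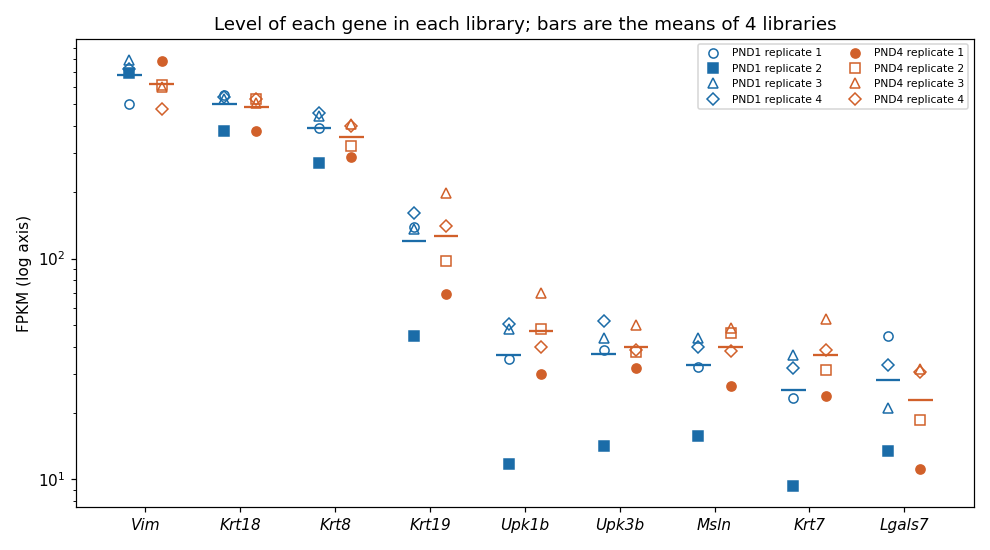
Level of each of the 9 measured genes (FPKM, log axis) in the 4 PND1 and 4 PND4 libraries, with a marker shape for each replicate and bars at the mean of each age. Filled markers are PND1 replicate 2 and PND4 replicate 1, which sit at the bottom of their age for each gene except Vim.

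Krt18 was the steadiest member, apart from a pair of low libraries. Krt18, the type I partner of KRT8, stood at 552, 378, 531 and 539 FPKM in PND1 replicates 1 to 4 and at 379, 530.2, 507 and 531 FPKM in PND4 replicates 1 to 4. The low values were those of PND1 replicate 2 and PND4 replicate 1, and the other 6 libraries lay between 507 and 552 FPKM, a range of 1.09-fold. Krt8 stood at 392, 272, 441 and 455 FPKM at PND1 and at 289.7, 323, 406 and 401 FPKM at PND4, each in the order of replicates 1 to 4. Its lowest libraries at each age were again PND1 replicate 2 and PND4 replicate 1, and the ages overlapped. Part of the Krt8 reads could be shared with the pseudogene Krt8-ps, on chromosome 7 from 23357125 to 23358069, which was listed at 12.2 to 29.1 FPKM.

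Krt19 and Krt7 varied more. Krt19, the type I keratin without the usual tail domain, stood at 139, 44.5, 136 and 160.2 FPKM at PND1 and at 69.5, 97.3, 198 and 140.0 FPKM at PND4. Its highest library, PND4 replicate 3, was 4.44-fold above its lowest, PND1 replicate 2. Krt7, a type II keratin of simple and ductal epithelia, stood at 23.3, 9.33, 36.5 and 32.1 FPKM at PND1 and at 23.8, 31.3, 53.1 and 38.5 FPKM at PND4. PND1 replicate 2 was lowest and PND4 replicate 3 highest for this gene as well, 5.69-fold apart, and the PND4 values overlapped those of PND1.

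The uroplakin and mesothelin genes had a pattern across libraries like that of Krt19 and Krt7. Upk3b, which encodes a uroplakin used as a marker of mesothelium, stood at 38.6, 14.1, 43.7 and 52.1 FPKM at PND1 and at 32.1, 37.7, 50.3 and 38.7 FPKM at PND4. Upk1b, which encodes a tetraspanin-like uroplakin, stood at 34.9, 11.8, 48.2 and 50.8 FPKM at PND1 and at 29.9, 48.1, 69.9 and 39.7 FPKM at PND4. Msln, which encodes the cell-surface protein mesothelin, stood at 32.3, 15.8, 43.6 and 39.8 FPKM at PND1 and at 26.6, 45.8, 48.7 and 38.2 FPKM at PND4. For these genes PND1 replicate 2 was the lowest of the 8 libraries, and PND4 replicate 1 the lowest of PND4. Lgals7, which encodes galectin-7, a lectin of stratified epithelia, stood at 44.8, 13.4, 21.1 and 33.1 FPKM at PND1 and at 11.2, 18.6, 31.5 and 30.5 FPKM at PND4. The lowest Lgals7 value of all was in PND4 replicate 1 and the highest in PND1 replicate 1, and the ages overlapped.

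Vim did not follow the epithelial members. It stood at 499, 694, 792 and 726 FPKM at PND1 and at 784, 611, 598 and 476 FPKM at PND4. PND4 replicate 1, the lowest PND4 library for the 8 other members, was the highest for Vim, and PND1 replicate 2 lay between the other PND1 libraries. Across the table, 27.3% of the 10756 tested genes had their lowest PND1 value in PND1 replicate 2, and 45.6% their lowest PND4 value in PND4 replicate 1. Both held for 14.1% of tested genes and for 8 of the 9 members. These libraries were singled out after the values of the members were seen, and these 8 members were low together. The count is therefore a description and not a test.

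**Figure D2:**
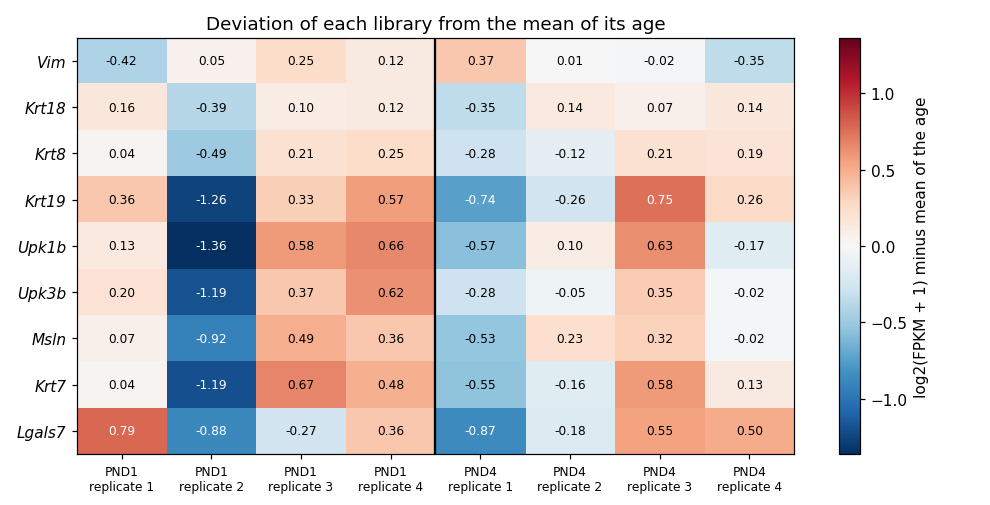
Deviation of log2(FPKM + 1) from the mean of the age for the 9 genes in each library, as a colour scale. PND1 replicate 2 was negative for each gene but Vim, down to -1.36 for Upk1b, and PND4 replicate 1 was negative for each gene but Vim, down to -0.87 for Lgals7.

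The comparison of ages asked whether these genes differed between PND1 and PND4. No member passed. The test was limma on log2(FPKM + 1), with adjustment over the 10756 genes that reached 1 FPKM in 4 or more libraries, and the 9 members were all among them. At an adjusted p under 0.05, 0 of 9 members were called, where 0.0093% of all tested genes were (1 gene). At an unadjusted p under 0.05 the count was also 0 of 9, where 5.9% of all tested genes were. The libraries of the ages overlapped for 9 of 9 members, and they did not overlap for 4.24% of tested genes. Of the members 5 had higher and 4 lower mean log2 values at PND4, with a median difference of 0.12, beside a median of 0.078 over all tested genes (6486 higher, 4270 lower).

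Krt7 had the smallest p among the members. Mean levels were 25.3 ± 12.0 FPKM for PND1 and 36.7 ± 12.5 for PND4 (SD, n = 4), a log2 difference of 0.61 with a 95% interval of -0.21 to 1.44 (limma, adjusted p = 0.807). Krt19 had means of 119.9 ± 51.4 and 126 ± 55.9 FPKM, and its difference of 0.12 had an interval of -0.77 to 1.00 (limma, adjusted p = 0.970). That interval spans changes of up to 2-fold upward and almost as much downward, since this gene varied widely within each age. For the abundant pair the intervals were narrower. Krt18 had means of 500.0 ± 81.8 and 487 ± 72.9 FPKM with a difference of -0.035 (interval -0.37 to 0.30, limma adjusted p = 0.975), and Krt8 had means of 390.1 ± 83.1 and 355 ± 57.8 FPKM with a difference of -0.12 (interval -0.50 to 0.26, limma adjusted p = 0.912).

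The uroplakin genes also stayed below the threshold. Upk1b had means of 36.4 ± 17.8 and 46.9 ± 17.1 FPKM and differed by 0.48 on the log2 scale (interval -0.42 to 1.38, limma adjusted p = 0.855), and Upk3b means of 37.1 ± 16.3 and 39.7 ± 7.63 FPKM, a difference of 0.22 (interval -0.52 to 0.96, limma adjusted p = 0.921). Msln had means of 32.9 ± 12.3 and 39.8 ± 9.87 FPKM and a difference of 0.33 (interval -0.33 to 0.98, limma adjusted p = 0.859). Lgals7 had a difference of -0.26 (interval -1.11 to 0.60, limma adjusted p = 0.921), and Vim, with means of 678 ± 126 and 617 ± 127 FPKM, one of -0.14 (interval -0.51 to 0.24, limma adjusted p = 0.90). PND1 replicate 2 weighed on several of these values. Without it the log2 difference was 0.22 for Krt7, 0.022 for Upk1b and 0.019 for Msln, and it was -0.18 for Upk3b and -0.30 for Krt19. It was -0.55 for Lgals7, -0.29 for Krt8, -0.16 for Krt18 and -0.12 for Vim, and none was called. The authors' deposited table of the same contrast gave q-values of 0.792 (Krt8) to 0.977 (Krt19) for these 9 genes.

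**Figure D3:**
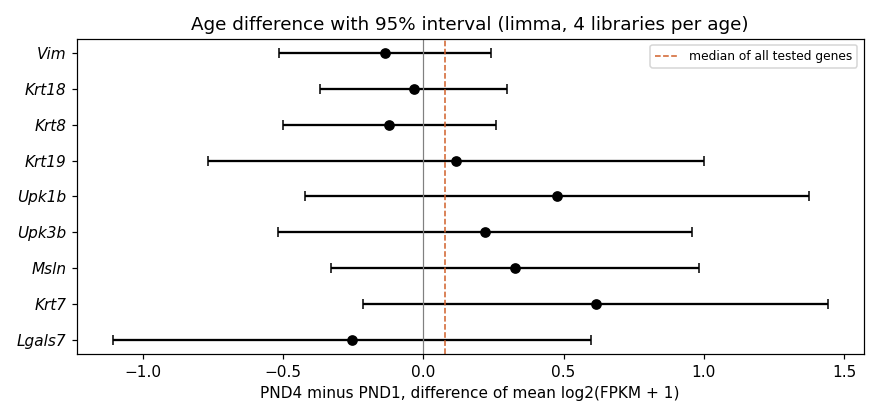
Difference of mean log2(FPKM + 1), PND4 minus PND1, with its 95% interval for each gene (limma, 4 libraries per age), and the median of all tested genes as a dashed line at 0.078. The interval of each of the 9 genes includes 0, from -0.26 for Lgals7 to 0.61 for Krt7.

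Ratios of filament genes show how far the keratin pairs kept their balance from library to library. Krt8 over Krt18, the type II over the type I gene of the main pair, was 0.776 ± 0.0707 at PND1 and 0.733 ± 0.0843 at PND4 (ratio of FPKM, SD, n = 4), and it stayed between 0.610 and 0.844 over the 8 libraries. The ends of that range were PND4 replicate 2 (0.610) and PND1 replicate 4 (0.844). The libraries with low keratin levels lay between these, at 0.720 in PND1 replicate 2 and 0.765 in PND4 replicate 1. Krt7 and Krt8 together over Krt18 and Krt19 together ran from 0.565 to 0.717. Krt7 over Krt19 was 0.212 ± 0.0422 at PND1 (0.168 to 0.269) and 0.302 ± 0.0356 at PND4 (0.268 to 0.342), so the ages met at the edge of their ranges. These ratios are descriptions and were not tested.

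Krt18 over Vim varied more than the ratio within the keratin pair. It was 1.11, 0.545, 0.670 and 0.743 in PND1 replicates 1 to 4 and 0.483, 0.867, 0.849 and 1.12 in PND4 replicates 1 to 4. Krt18 exceeded Vim in PND1 replicate 1 and in PND4 replicate 4, and the lowest values were those of PND4 replicate 1 and PND1 replicate 2. The 4 keratins summed to 704 to 1186 FPKM per library, or 0.143% to 0.263% of all listed FPKM. The sum of Upk3b, Upk1b, Lgals7 and Msln ran from 55.1 FPKM in PND1 replicate 2 to 200.4 FPKM in PND4 replicate 3.

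**Figure D4:**
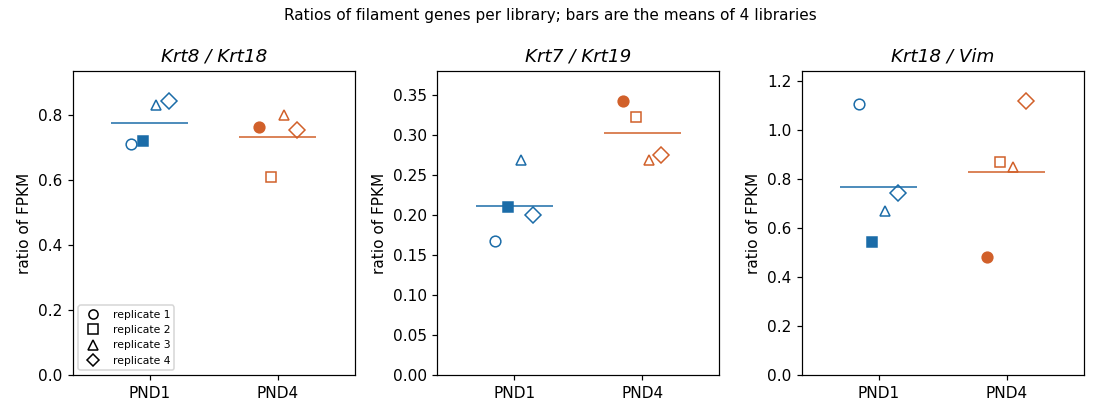
Ratio of FPKM per library at PND1 and PND4 for Krt8 over Krt18, Krt7 over Krt19 and Krt18 over Vim, with a marker shape for each replicate, bars at the mean of 4 libraries and filled markers for PND1 replicate 2 and PND4 replicate 1. Krt8 over Krt18 stays between 0.610 and 0.844, whereas Krt18 over Vim runs from 0.483 to 1.12.

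Most epithelial members went up and down together between libraries of the same age. Pairs of members were compared by the correlation of their deviations from the mean of the age, on log2(FPKM + 1), over the 8 libraries. Krt18 had been planned for these pairs and was left out because its values form separate sets (378 and 379 against 507 to 552 FPKM). The other 8 members gave 28 pairs. Each p is two-sided, from an exact permutation of libraries within ages with 576 orders (smallest possible p = 0.00174), adjusted over the 28 pairs. The 21 pairs without Vim were all positive, with a median Pearson r of 0.93 (0.65 to 0.97) and a median Spearman rho of 0.88 (0.33 to 0.95). Of the 28 pairs 16 passed by r and 11 by rho in these exact permutation tests, all of them without Vim.

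Krt7 with Krt8, the type II keratins, had an r of 0.97 and a rho of 0.90 (exact permutation, adjusted p = 0.0162 and 0.0438). Krt19 with Krt8 also had an r of 0.97 and a rho of 0.90 (exact permutation, adjusted p = 0.0162 and 0.0405), and Krt19 with Krt7 had an r of 0.95 and a rho of 0.81 (exact permutation, adjusted p = 0.0203 and 0.0694). The uroplakin genes, which encode membrane proteins of surface cells, also passed. Upk3b with Upk1b had an r of 0.97 and a rho of 0.95 (exact permutation, adjusted p = 0.0162 and 0.0389). Across the boundary between filament and surface genes, Upk3b had an r of 0.95 with Krt7, 0.93 with Krt19 and 0.93 with Msln (exact permutation, adjusted p = 0.0203, 0.0162 and 0.0203), with rho of 0.90, 0.88 and 0.90. Lgals7 was looser, with an r of 0.70 and a rho of 0.52 with Upk3b (exact permutation, adjusted p = 0.0895 and 0.367).

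These correlations leaned on PND1 replicate 2 and PND4 replicate 1. Without the 2 libraries farthest from the median of the first gene of a pair, the median r of the 21 pairs was 0.67 and the range -0.66 to 0.96. Over the 6 libraries without PND1 replicate 2 and PND4 replicate 1, a choice made after the data were seen, the median r was 0.61 and 18 of 21 pairs were positive. In these 6 libraries the smallest possible p is 0.0278, adjusted p-values could pass only if most of the 28 pairs reached it together, and 0 pairs had an unadjusted p under 0.05. Krt7 with Krt8 had an r of 0.84 there, Krt19 with Krt8 0.81, Krt19 with Krt7 0.74, Upk3b with Upk1b 0.89, Upk3b with Krt7 0.80, Upk3b with Krt19 0.77, Upk3b with Msln 0.61 and Upk3b with Lgals7 0.11. The count of 16 pairs was 0 without PND1 replicate 2, without PND4 replicate 1 or without PND4 replicate 3. It was 9 when PND1 replicate 1 was left out and 10 when PND1 replicate 4 was. With any 1 library left out the median r stayed between 0.81 and 0.95, and without PND4 replicate 1 it was 0.94. The smallest possible p is larger with fewer libraries, so these counts cannot be set directly against the 16 over 8 libraries. With median-of-ratios scaling of the libraries the count was 2, while the median r was 0.92 and all 21 pairs without Vim were positive. Under that scaling Krt19 with Krt8 had an adjusted p of 0.0535 and Krt7 with Krt8 one of 0.0598 (exact permutation).

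Vim had a negative r with each of the other 7 members over 8 libraries, from -0.74 with Lgals7 to -0.053 with Upk1b, and none passed (exact permutation, adjusted p of 0.0891 to 0.901). With Krt8 its r was -0.27 and its rho -0.095 (exact permutation, adjusted p = 0.636 and 0.955). Over the 6 libraries the r of Vim was positive with 5 of the 7 members, from 0.20 with Krt8 to 0.96 with Msln, so these signs turned. With Msln the rho was already positive over 8 libraries (0.12). With Lgals7 the r of Vim stayed negative, at -0.78 over the 6 libraries, and with Krt19 it was -0.0024. Krt18, left out of the pairs over 8 libraries, was compared over those 6, where it moved within 1.09-fold. In the libraries left out it was low together with Krt8. Its deviation from the age mean was -0.39 in PND1 replicate 2 and -0.35 in PND4 replicate 1, beside -0.49 and -0.28 for Krt8. Over the 6 libraries the r of Krt18 was -0.94 with Krt7, -0.61 with Krt8, -0.65 with Krt19 and -0.79 with Upk3b. It was -0.92 with Upk1b, -0.83 with Msln and -0.69 with Vim. With Lgals7 the r was 0.21 (rho of -0.94, -0.49, -0.37, -0.89, -0.89, -0.89, -0.66 and 0.37 in the same order). Adjusted over its 8 partners none passed in the exact permutation test (adjusted p of 0.222 to 0.639).

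**Figure D5:**
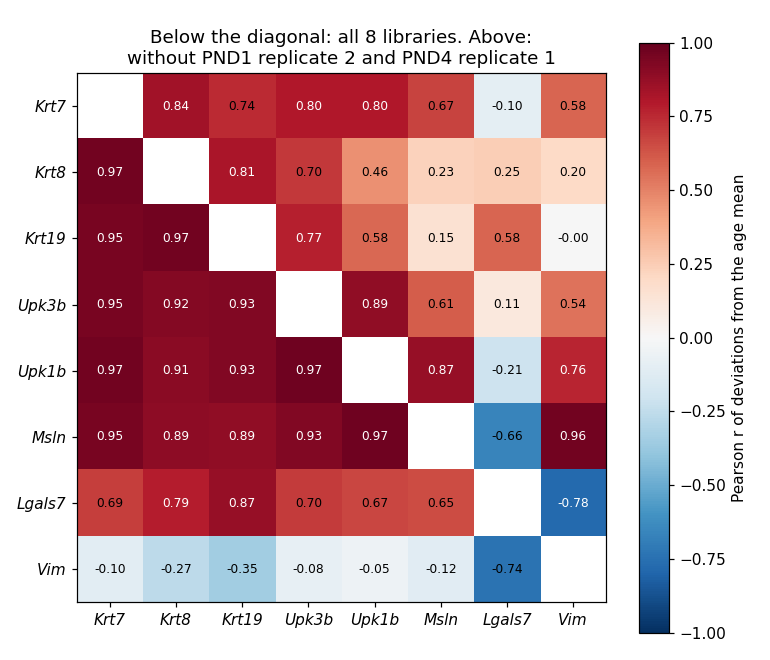
Pearson r of deviations from the age mean for each pair of 8 genes, below the diagonal over all 8 libraries and above it over the 6 libraries without PND1 replicate 2 and PND4 replicate 1, on a colour scale from -1 to 1. The 21 pairs without Vim are all positive below the diagonal, with a median of 0.93, and 18 of 21 are positive above it, with a median of 0.61.

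The same measure over all tested genes gives the background of these values. An r of 0.8 or more with Upk3b was reached by 3.03% of tested genes and by 5 of its 7 fellow members (Krt7, Krt8, Krt19, Upk1b and Msln). With Krt19 it was reached by 4.44% of tested genes and by 6 of 7 members, with Krt8 by 3.95% and by 5 of 7, and with Vim by 2.64% and by 0 of 7. The 3 named genes outside the members most like Upk3b were Igfbp3 (r = 0.99 over 8 libraries), which encodes a binding protein of insulin-like growth factors, the hexokinase gene Hk2 (0.99) and the ribosomal-protein-like gene Rps3a3 (0.99). Igfbp3 stood at 14.5 FPKM in PND1 replicate 2, 34.5 in PND4 replicate 1 and 60.3 in PND4 replicate 3. Most like Krt19 were Washc5, Gprc5a and Metap2 (r of 0.99, 0.99 and 0.98), most like Krt8 were Gpd2, Metap2 and Pomp (0.99, 0.98 and 0.97), and most like Vim were Ctdnep1, Ttc9c and Ppp2r5d (0.97, 0.97 and 0.96). These genes were picked for the highest r of all tested genes, so their r carry no test.

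Other genes of epithelial layers moved with the members in part. Of 31 further genes of mesothelium and surface epithelium, 22 were listed and tested, 0 were called in either direction and their median log2 difference was 0.0094 (11 higher, 11 lower). An r of 0.8 or more with Upk3b was reached by 5 of the 22, or 22.7%. These were Podxl (0.89), which encodes podocalyxin, Procr (0.85), the endothelial protein C receptor gene, the gonadal transcription factor gene Lhx9 (0.85), the membrane glycoprotein gene Gpm6a (0.84) and the growth factor binding protein gene Igfbp5 (0.82). Podxl stood at 33.5, 19.0, 48.6 and 39.9 FPKM at PND1 and at 21.2, 32.4, 42.5 and 27.1 FPKM at PND4, with PND1 replicate 2 and PND4 replicate 1 lowest. Over the 6 libraries without those, the r of these 5 genes with Upk3b was 0.66, 0.45, 0.81, 0.33 and 0.57. The most abundant gene of the list went the other way. Aldh1a1, a retinoic acid synthesis gene, was highest in PND1 replicate 2 (455 FPKM) and PND4 replicate 1 (393 FPKM), against 314 to 356 FPKM in the other 6 libraries, with means of 361 ± 64.0 at PND1 and 352 ± 29.6 at PND4. The next in level, Gata4, a transcription factor gene of gonadal somatic cells, had means of 71.0 ± 31.0 and 64.4 ± 20.7 FPKM. The r with Upk3b was -0.88 for Aldh1a1 (0.24 over the 6 libraries) and -0.54 for the caveolin gene Cav1 (-0.86). The median r with Upk3b of the 22 genes was 0.50.

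Of 23 epithelial junction genes 14 were listed and 13 tested, with 0 called and a median difference of -0.080. The adhesion gene Epcam was the 1 of 13 with an r of 0.8 or more with Upk3b (0.94, and 0.81 over the 6 libraries). It stood at 5.68, 2.35, 7.97 and 12.1 FPKM at PND1 and at 8.56, 8.78, 10.5 and 9.86 FPKM at PND4. Its low library was PND1 replicate 2, while PND4 replicate 1 lay near the other PND4 libraries. E-cadherin (Cdh1) was at 0 in PND1 replicates 1 and 2 and in PND4 replicate 1, and reached 4.16 FPKM in PND4 replicate 3. The most abundant junction genes were F11r, for a tight-junction adhesion molecule, with means of 123 ± 19.3 and 92.8 ± 22.9 FPKM (limma, unadjusted p = 0.0368, adjusted p = 0.805), and Cd24a, with 48.2 ± 15.5 and 35.5 ± 8.15 FPKM.

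Partners of the keratin network were few in the table. Besides the members, 3 keratin genes were listed, Krt17, Krt79 and Krt80, each at 0 in some libraries and at most 4.31 FPKM (Krt17 in PND4 replicate 3), and only Krt17 was tested. Of 13 keratin linker and desmosome genes 6 were listed and 5 tested, with 0 called and a median difference of -0.25. In that list the plakophilin gene Pkp2 had means of 24.7 ± 3.51 and 23.9 ± 1.70 FPKM and Jup, for plakoglobin, 19.0 ± 3.17 and 15.5 ± 5.15 FPKM. The r with Upk3b was -0.87 for Pkp2 (-0.73 over the 6 libraries) and 0.54 for Jup (0.91). The median r with Upk3b of the 5 tested genes was 0.071. Of 13 other intermediate filament genes 4 were tested, with 0 called and a median difference of 0.19. The lamin gene Lmna had 68.5 ± 13.8 and 86.8 ± 5.59 FPKM (limma, unadjusted p = 0.0380, adjusted p = 0.805) and Lmnb1 had 58.6 ± 10.8 and 64.4 ± 9.36 FPKM. Of 16 epithelial transcription factor genes 5 were tested, with 0 called and a median difference of -0.25. Klf4 was the 1 of 5 with an r of 0.8 or more with Upk3b (0.85, and 0.87 over the 6 libraries), while the most abundant of the list were Sp1, at 13.2 ± 6.89 and 13.7 ± 5.42 FPKM, and Klf5, at 7.61 ± 3.22 and 6.10 ± 4.51 FPKM.

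Contractile genes of the mesenchymal list had the opposite pattern. Of its 12 genes 11 were tested, with 0 called and a median difference of 0.11. Tagln, which encodes the actin-binding protein transgelin, stood at 480, 813, 467 and 430 FPKM at PND1 and at 606, 471, 348 and 430 FPKM at PND4, and its r with Upk3b was -0.93 (-0.90 over the 6 libraries). Acta2, the smooth muscle actin gene, was at 717 FPKM in PND1 replicate 2 and 696 in PND4 replicate 1, against 325 to 520 FPKM in the other 6, with an r of -0.75 (-0.31 over the 6 libraries). The libraries lowest in the epithelial members were thus the highest in both genes. S100a4 was the 1 gene of this list with an r of 0.8 or more with Upk3b (0.83, at most 4.28 FPKM), and Snai1 the 1 with such an r with Vim (0.80). Of 7 galectin genes 5 were tested, with 0 called and a median difference of -0.11. Lgals1 had means of 722 ± 100 and 669 ± 119 FPKM and Lgals3 49.3 ± 11.02 and 67.7 ± 16.4 FPKM. Of 6 aldehyde dehydrogenase genes related to Aldh3b2, 4 were tested, with 0 called and a median difference of 0.35, and in that group Aldh2 followed Aldh1a1 in level, with 16.9 ± 1.55 and 17.9 ± 1.10 FPKM.

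Markers of other cell types were summed in each library beside these results. Of 6 smooth muscle and pericyte markers 3 were listed (Acta2, Tagln and Cnn1), and they summed to 842, 1532, 926 and 896 FPKM at PND1 and to 1309, 991, 674 and 877 FPKM at PND4, highest in PND1 replicate 2 and PND4 replicate 1. Myh11, Rgs5 and Cspg4 were not among the listed genes. Acta2 and Tagln, described above, made up nearly all of this sum (717 and 813 of 1532 FPKM in PND1 replicate 2). Of 12 oocyte markers 10 were listed, 6 of them at 0 in some library. They summed to 12.2 to 61.6 FPKM at PND1 and to 16.0 to 195 FPKM at PND4, lowest at each age in PND1 replicate 2 and PND4 replicate 1 and highest in PND4 replicate 3. PND4 replicate 3 was also the highest library for 4 members (Krt19, Krt7, Upk1b and Msln). In that list Zp3 stood at 0.0804 FPKM in PND1 replicate 2 and at 61.3 FPKM in PND4 replicate 3. All 10 stroma markers were listed and summed to 114 to 131 FPKM at PND1 and 148 to 191 FPKM at PND4, with Dcn at 19.9 ± 4.55 and 36.1 ± 7.12 FPKM and Col1a1 at 20.0 ± 4.21 and 27.7 ± 5.68 FPKM. Of 9 immune markers 5 were listed, at 8.82 to 28.3 and 2.92 to 65.3 FPKM with the highest sum in PND4 replicate 1. Of 6 erythroid markers 3 were listed, at 17.1 to 48.9 and 0.268 to 11.4 FPKM with the highest sum in PND1 replicate 2. Of 9 endothelial markers 1 was listed (Esam, at most 9.05 FPKM). Entries encoded in mitochondria made up 22.4% to 30.6% of the listed FPKM. Their share was 28.9%, 30.6%, 26.6% and 29.9% in PND1 replicates 1 to 4 and 29.4%, 23.4%, 22.4% and 22.8% in PND4 replicates 1 to 4. Over 8 libraries, deviations of the marker sums had an r with Upk3b of -0.85 for smooth muscle and pericyte and 0.74 for oocyte markers. The smooth muscle value repeats the pattern of Acta2 and Tagln given above and is not a separate result. For the other sums the r with Upk3b is given next. It was -0.51 for granulosa, 0.23 for stroma, 0.53 for endothelial, -0.39 for immune and -0.36 for erythroid markers. The mitochondrial share had an r of -0.66 with Krt8, -0.65 with Krt19 and -0.45 with Upk3b. Unadjusted exact permutation p-values were 0.0104 (oocyte), 0.0139 (smooth muscle), 0.0486 (Krt8) and otherwise 0.0903 to 0.469. Whether these had a part in the shared variation was not tested.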

How the data were processed

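Granulosa cell RNA was isolated on columns and made into standard Illumina libraries, per the labels' protocols. Trim Galore, HISAT2 and the build GRCm38 are named, without versions, per the submitters' processing notes. FPKM of the 8 libraries come from 1 table deposited by the authors. Its program, annotation, strand setting and gene filter are not named in the sources used here. A second table deposited by the authors holds a fold (a ratio, read from the values as PND1 over PND4), the log2 of that ratio, a p-value and a q-value, by an unnamed test. That log2 had an r of -0.95 across genes with the difference computed here.

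The values were not counts, so limma 3.58.1 (R 4.3.3) was used in place of a count test, on log2(FPKM + 1), with a prior variance that depends on the mean and without a block. Fold changes on this scale understate changes of low genes. A gene was tested if it reached 1 FPKM in 4 or more libraries (10756 genes, with 1027 untested), with Benjamini-Hochberg adjustment. The limma and correlation steps were tested on simulated data. Whole reads were not recovered, since at the best of 400 step sizes at most 35.2% of low values of single-transcript genes lay within 0.1 of a whole multiple, where 20% would by chance, so the read depth is unknown. Libraries were told apart by replicate number, and no 2 held identical values. Positions came from GENCODE M21 (11774 of 11783 identifiers found) and promoters from RefSeq. Figures were drawn with matplotlib 3.10.9.

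The members and gene lists were chosen with earlier results of these data known. Genes named were the members, Foxl2, Kitl, Zp3, Dcn and Col1a1, the 2 most abundant tested genes of each list, any gene of a list that passed the test (there were 0) and the 3 genes most like Krt8, Krt19, Upk3b and Vim. Other genes were named after their values were seen. Alternatives covered scaling (median-of-ratios, upper quartile, without mitochondrially encoded entries), the filter, the pseudocount (0.1 and 5), robust variance, a block, rank correlation, no age means and leaving out each library. Leaving out PND1 replicate 2 and PND4 replicate 1 together was chosen after seeing the data.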

Additional observations from a re-analysis of the deposited data

Results flagged for a closer look

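In 22 groups of 4 libraries, a value far from the other 3 of its age was looked for, which chance gives in about 1 of 20 groups. It was found in 2 of the 22 groups, those of Krt18 at both ages, and so small a count can arise by chance. The groups are also not independent, since members share their low libraries. PND1 replicate 2 had 378 FPKM, the lowest of PND1, where the other 3 libraries lay between 531 and 552 FPKM. PND4 replicate 1 had 379 FPKM, the lowest of PND4, where the other 3 lay between 507 and 531 FPKM. The 2 low values of Krt18 were less than 1 FPKM apart, and the same libraries were the lowest of their age for the other epithelial members.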

How the results depend on the processing

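No member was called under any of 153 combinations of a member and an alternative (smallest limma adjusted p = 0.745), and the sign of the log2 difference was kept in 143 and turned in 10. It turned for Krt18 without PND1 replicate 1 (0.018), PND1 replicate 4 (0.0062) or PND4 replicate 1 (0.081), for Krt19 without PND1 replicate 2 (-0.30) or PND4 replicate 3 (-0.13), for Upk3b without PND1 replicate 2 (-0.18), and for Lgals7 without PND1 replicate 1 (0.0062) or PND4 replicate 1 (0.034). Without both PND1 replicate 2 and PND4 replicate 1 it turned for Krt19 (-0.055) and Upk3b (-0.084), and the r of Krt8 with Vim became 0.20 (-0.46 to -0.0014 with 1 library left out). With 1 library left out, the differences ran from -0.16 to 0.081 for Krt18, -0.30 to 0.36 for Krt19, -0.18 to 0.43 for Upk3b and -0.55 to 0.034 for Lgals7. Upk1b and Msln kept their sign without PND1 replicate 2, at 0.022 and 0.019. The median of the 9 members took the values -0.16 (PND1 replicate 2 left out), -0.060 (PND4 replicate 3) and 0.31 (PND4 replicate 1).

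Over all genes 0 were called higher in each alternative and 1 lower, except 0 lower where 1 FPKM was required in all 8 libraries, since the called gene was at 0 in all 4 PND4 libraries and was then not tested. The 16 pairs past the threshold became 2 with median-of-ratios scaling (median r 0.92, 21 of 21 pairs without Vim positive), 0 to 16 with 1 library left out (9 without PND1 replicate 1, 10 without PND1 replicate 4, 0 without PND1 replicate 2, PND4 replicate 1 or PND4 replicate 3, and 13 to 16 without 1 of the other 3) and 0 without both. With fewer libraries the smallest possible p is also larger. The cause of these changes in count was not tested. Replicate numbers did not pair libraries across ages (r of same-numbered libraries -0.0088 to 0.12), and with the replicate number as a block 0 genes were called higher and 1 lower.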
